A study of Dorcoceras hygrometricum with 51 samples.

Results

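The comparison described here sets promoter DNA methylation in leaves of drought-acclimated Boea hygrometrica (A4) against leaves of plants of the same stage that were never acclimated (F4). Boea hygrometrica, also named Dorcoceras hygrometricum, is a resurrection plant whose leaves can dry to an air-dried state and recover, and a cycle of slow soil drying and rewatering trains well-watered plants to survive rapid drying too. A4 plants were 3-month-old seedlings that went through slow soil drying and rewatering and were then grown on for 4 weeks, and F4 plants were grown on for the same 4 weeks without any drying. Both groups came from seed collected in natural habitats, so they are no inbred line, were raised in 1 well-watered greenhouse regime, and were sampled as fresh, hydrated leaves. Each group was 1 whole-genome bisulfite sequencing library made from equal DNA of 6 biological replicates, each of about 45 leaves from at least 15 plants. The members are all promoters (the 2 kb upstream of a coding region) whose Gene ID stands in both the A4 and the F4 table. They numbered 18498 of the 18771 promoters listed in at least 1 of the 12 libraries of the series, with 67 more in A4 alone and 126 more in F4 alone. With 1 library a side there is no replicate of any methylation level, so every methylation difference below is a description without an error or a test. The tables give levels without read numbers, so the depth behind a single promoter is unknown.

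Cytosine methylation in plants is kept up by a different enzyme in each sequence context. In Arabidopsis thaliana, MET1 copies methylation of CG sites onto the new strand at replication, CMT3 maintains CHG sites (H is A, C or T) where histone H3 carries a repressive mark, and CHH sites must be methylated afresh by DRM2, which small RNAs guide in RNA-directed DNA methylation, and by CMT2. DNA glycosylases of the DEMETER and ROS1 family remove the mark. Dense methylation is best known from transposons and repeats, and at promoters it is known to accompany silence of the gene, although many genes carry it without being silent.

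Promoters were less methylated in A4 than in F4 in all 3 contexts. In CG the mean level was 48.0% in A4 and 55.1% in F4, and the median was 51.5% in A4 and 61.4% in F4. In CHG the mean was 39.8% in A4 and 45.9% in F4, with medians of 40.7% in A4 and 50.2% in F4. In CHH the mean was 15.1% in A4 and 18.6% in F4, with medians of 12.5% in A4 and 16.1% in F4. The promoter-by-promoter difference, A4 minus F4, had a median of -6.52 percentage points in CG (quartiles -12.4 and -0.574), -5.08 points in CHG and -2.37 points in CHH. A4 was the lower of the pair at 14437 promoters in CG (78.0%), 13669 in CHG (73.9%) and 12476 in CHH (67.4%).

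A difference of at least 20 points in CG or CHG, or of at least 10 points in CHH, was counted as a change, and such changes ran mostly downward in A4. In CG 1412 promoters (7.63%) were lower in A4 and 228 (1.23%) were higher. In CHG 1013 (5.48%) were lower and 147 (0.795%) were higher. In CHH 2153 (11.6%) were lower and 196 (1.06%) were higher. These shares are the background for every count of promoters given below. The upper end of the scale was thinned out most: 1058 promoters had a CG level of 90% or more in A4 against 4968 in F4, and 100 against 1168 did so in CHG. At the other end, 3016 promoters lay under 5% CG in A4 and 2757 did in F4, yet fewer promoters stood at exactly 0 in A4 than in F4, with 579 against 848 in CG, 636 against 1181 in CHG and 66 against 148 in CHH.

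The other 10 libraries place the pair. Over the 18186 promoters measured in all 12 libraries, A4 had the lowest mean of the 12 in each context and F4 lay within the range of the rest. The CG mean was 48.2% in A4 and 55.3% in F4, and it was between 52.8% and 56.1% in the other 10. The CHG mean was 40.01% in A4 and 46.2% in F4, against 43.5% to 47.2% in the other 10. The CHH mean was 15.2% in A4 and 18.7% in F4, and here the other 10 reached down to 15.5%, close to A4, and up to 21.1%. A4 was the lowest of the 12 libraries at 8427 promoters in CG, 7487 in CHG and 3253 in CHH, whereas F4 was the lowest at 556, 480 and 569. Among the other 10 libraries that count ran from 478 to 1143 in CG and from 405 to 1219 in CHG. In CHH the range was 454 to 3307, with SD the lowest at 3307, F at 2989 and AD at 2480. Across promoters, Pearson's r of A4 with the other libraries was between 0.948 and 0.961 in CG. This upper end was below that of each other library, F4 with 0.972 included. Such values compare the same promoters in each library and carry no test. The A4 library thus stands apart from the 11 others in CG and CHG. In CHH its median, 12.7%, was only the third lowest, and each difference below rests on this 1 library.

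**Figure D1:**
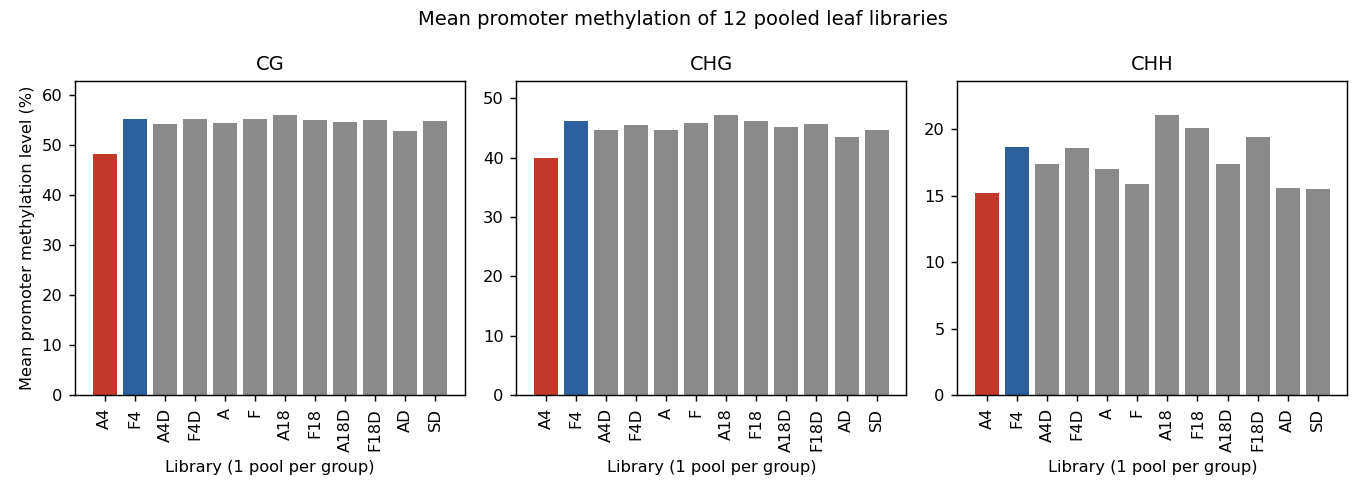
Mean methylation level (%, y axis from 0) of the promoters measured in all 12 libraries, 1 bar for each pooled library, in CG, CHG and CHH, with A4 in red, F4 in blue and the others in grey (D marks rapid air-drying, 18 marks 18 weeks, SD slow soil drying, A acclimated and F fresh plants). The A4 bar is the lowest in every context, at 48.2%, 40.01% and 15.2%, while F4 is within the range of the grey bars.

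None of 3 further acclimated and control pairs showed a shift of this size. The 3 further pairs share no library with A4 or F4: plants just after acclimation (A against F), the pair after 18 weeks (A18 against F18), and the 4-week pair after rapid air-drying (A4D against F4D). Their median CG differences were -0.15, 0.40 and -0.37 points in this order, against -6.52 points for A4 minus F4. Their median CHG differences were -0.06, 0.50 and -0.08 points, and their median CHH differences were 0.65, 0.50 and -0.39 points. The share of promoters lower by at least 20 points in CG was 3.36% for A against F, 2.46% for A18 against F18 and 2.37% for A4D against F4D. The share higher by as much was 2.26% for A against F, 3.44% for A18 against F18 and 1.22% for A4D against F4D, the last beside 1.23% for A4 against F4. In CHG 2.61% were lower and 0.843% higher for A against F, 1.35% lower and 2.33% higher for A18 against F18, and 1.52% lower and 0.608% higher for A4D against F4D. In CHH, at 10 points, 2.56% were lower and 3.26% higher for A against F, 2.72% lower and 4.47% higher for A18 against F18, and 3.73% lower and 1.02% higher for A4D against F4D. The pairs thus had their losses and gains closer to balance than A4 against F4, with 5.48% lower and 0.795% higher in CHG and 11.6% lower and 1.06% higher in CHH. The A4D library had a mean CG level of 54.2% and F4D one of 55.2%, over the promoters of all 12 libraries. The dried 18-week pair, A18D against F18D, was not compared promoter by promoter. Over the same promoters its means were 54.5% in A18D and 55.0% in F18D in CG. They were 45.1% and 45.7% in CHG, and 17.4% and 19.4% in CHH, so A18D was the lower there too. Each pair is 1 library a side, and the differences between pairs were not tested.

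The difference depended on how methylated a promoter was. Promoters were classed by their mean over the 10 libraries other than A4 and F4, so that the class does not use the compared values. In CG the median difference was -1.79 points in the class of 5 to 20%, -6.56 at 20 to 40%, -8.85 at 40 to 60%, -9.13 at 60 to 80%, -9.64 at 80 to 90% and -8.87 at 90 to 100%. In the highest class the median level was 85.1% in A4 and 94.4% in F4, and A4 was lower at 95.6% of its 4676 promoters. The large losses were most frequent at intermediate levels, where 14.7% of promoters in the class of 40 to 60% were at least 20 points lower in A4, against 3.68% in the class of 90 to 100%. CHG behaved alike, with a median difference of -2.70 points at 5 to 20% and -9.75 points at 80 to 90%. In CHH the difference grew with the level throughout, and its median was -1.23 points at 5 to 10%, -3.08 at 10 to 20%, -5.20 at 20 to 30%, -7.38 at 30 to 40% and -8.40 above 40%, where 37.7% of promoters were at least 10 points lower.

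Promoters that are barely methylated went the other way. Where the other libraries averaged under 1% in CG, the median level was 0.860% in A4 and 0.445% in F4, and A4 was the higher at 58.8% of 1171 promoters. In CHG under 1% the medians were 1.00% in A4 and 0.556% in F4, with A4 higher at 63.6% of 2492 promoters. In CHH under 1% the medians were 1.58% in A4 and 0.663% in F4, and A4 was higher at 88.6% of 3100 promoters. The A4 levels were therefore drawn in from both ends, with medians of -8.87 points at the top of the CG scale and 0.24 points at its foot. In the other 3 pairs, classed by the 10 libraries outside each pair, the classes under 5% gave medians between -0.22 and 0.05 points. A small excess over unmethylated promoters moves with the deficit over methylated ones in the same library, and its part in the result was not tested.

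**Figure D2:**
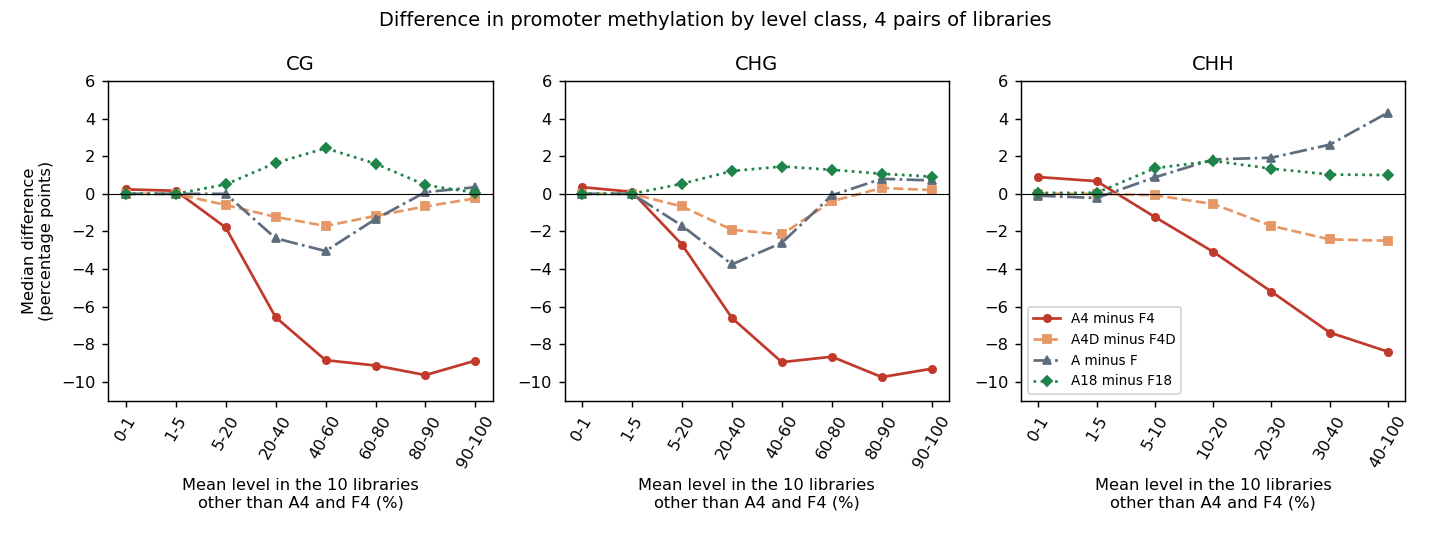
Median difference in methylation level (percentage points) by class of promoter. Lines are A4 minus F4 (red), A4D minus F4D (orange), A minus F (grey) and A18 minus F18 (green). Each pair was classed by the mean of the 10 libraries outside that pair. The axis label holds for A4 minus F4 only, and the class means of the 3 further pairs include A4 and F4. The red line leaves the others from the class of 5 to 20% on in CG and CHG and lies above them under 1%, where it is at 0.24, 0.36 and 0.89 points in CG, CHG and CHH.

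The 3 contexts moved together at many promoters. All 3 were lower in A4 at 10429 promoters (56.4%) and all 3 were higher at 1850 (10.0%). At the thresholds above, 550 promoters (2.97%) were lower in CG and CHG at once and 74 (0.4%) were higher in both, while 9 changed in opposite directions in the 2 contexts. Lower in both were 1.3% of promoters for A against F, 0.765% for A18 against F18 and 0.796% for A4D against F4D, and higher in both were 0.411%, 1.23% and 0.274% in the same order. The 550 are 38.95% of those lower in CG and 54.3% of those lower in CHG. CG alone was lower at 657 promoters, CHG alone at 241 and CHH alone at 1376, and 350 promoters were lower in all 3 contexts. Counting any context, 3251 promoters (17.6%) were lower and 397 (2.15%) were higher. Across the 18498 promoters the differences had a Pearson's r of 0.64 between CG and CHG, 0.62 between CHG and CHH and 0.48 between CG and CHH; the contexts share the reads of each library, so these are descriptions only.

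At most promoters with a large loss, A4 rather than F4 was the unusual value. Of the 1355 promoters that were at least 20 points lower in CG and measured in all 12 libraries, A4 was below all 10 others at 946, and F4 was above all 10 at 430. The mean of the others lay nearer to F4 at 1026 of them (75.7%). For the 207 such promoters higher in A4, the picture differed: A4 was above all 10 others at 49, F4 was below all 10 at 88, and the others lay nearer to A4 at 121 (58.5%). In CHG, A4 was below all 10 at 725 of 970 lower promoters and above all 10 at 38 of 132 higher ones. In CHH it was below all 10 at 1253 of 2106 and above all 10 at 48 of 184.

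Gene names below follow the Gene ID printed beside each promoter. The tables also carry a column of FPKM (fragments mapped to a transcript, scaled for its length and the library's size), and in it the F4 values matched the separately deposited transcript table at the preceding locus tag (r = 0.925 on a log scale over 9516 promoters) and not at the same tag (r = 0.0572). For the methylation levels the evidence was mixed. CG in F4 had a Spearman's rho of -0.0837 with transcripts of its own tag, -0.0585 with the preceding tag and -0.0568 with the next, and genes annotated as transposon-related had a median CG of 91.9% by their own tag and 89.0% by the preceding one. CHH went the other way, with a rho of -0.0109 for the own tag, -0.0451 for the preceding and -0.0439 for the next in F4, and CHG in A4 had -0.0686 for both the own and the preceding tag. These values do not settle the join. Names are given by the own Gene ID as deposited, with the limit that a promoter may belong to the gene one tag before. Of the 18498 promoters 12730 had an annotation under their own ID.

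The 10 annotated promoters furthest below F4 in both CG and CHG included regulators and enzymes, and several were emptied of methylation in A4. KZV30079 encodes factor of DNA methylation 1 (FDM1), which in Arabidopsis binds double-stranded RNA in RNA-directed DNA methylation. The gene lies on scaffold KV008752.1 from 72630 to 75922, and no source used here names the genome build. Its promoter had 1.43% CG, 1.00% CHG and 2.69% CHH methylation in A4, against 66.7%, 61.3% and 41.8% in F4. The other 10 libraries ran from 29.6% to 76.8% in CG and from 33.3% to 62.6% in CHG, so A4 was below every one of them by a wide gap. KZV56371, a pirin-like protein, had 0.00% CG and 0.00% CHG in A4 against 65.5% and 61.0% in F4, and the other libraries held 47.3% to 67.1% in CG. KZV34879, annotated as heat stress transcription factor A-5-like, had 0.00% in both contexts in A4 against 66.3% CG and 61.2% CHG in F4, with 15.9% to 61.5% CG in the others. KZV31588, a cell number regulator 6-like protein, had 1.63% CG in A4 and 73.5% in F4, with 27.8% to 83.3% in the others. A4 was below all 10 others at these 4 promoters, and at KZV34879 F4 was above all 10 as well.

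At other promoters of the same group both libraries, or the rest of the series, were spread widely. KZV42136, phosphoenolpyruvate carboxylase 2, which fixes bicarbonate onto phosphoenolpyruvate, had 0.00% CG and 2.84% CHG in A4 against 75.7% and 77.8% in F4. In the other 10 libraries CG ran from 20.8% to 61.5% and CHG from 2.78% to 46.4%, so that both A4 and F4 stood outside in CG, on opposite sides. KZV32897, an aspartic protease of the nepenthesin type, had 0.00% CG and 1.01% CHG in A4 and 88.4% and 66.3% in F4. The F and A18 libraries were at 0.00% CG there too, while the other 8 held 52.9% to 71.5%, so that this promoter was empty in A4 and 2 further libraries and methylated in the rest. KZV23271, a putative glutathione S-transferase, had 13.5% CG in A4 and 100% in F4, with 19.7% to 87.5% in the others. KZV45611, a GRAS family transcription factor, had 4.76% CG in A4 and 73.3% in F4, and the others covered 0.00% to 85.2%. KZV19570, a chloroplastic geranylgeranyl diphosphate reductase that serves chlorophyll and tocopherol synthesis, had 2.86% in A4 and 68.9% in F4, where 8 other libraries with a value lay between 0.00% and 42.5%. KZV41049, a traB domain protein, had 35.0% in A4 and 100% in F4 and a value in only 7 other libraries, from 9.09% to 100%.

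**Figure D3:**
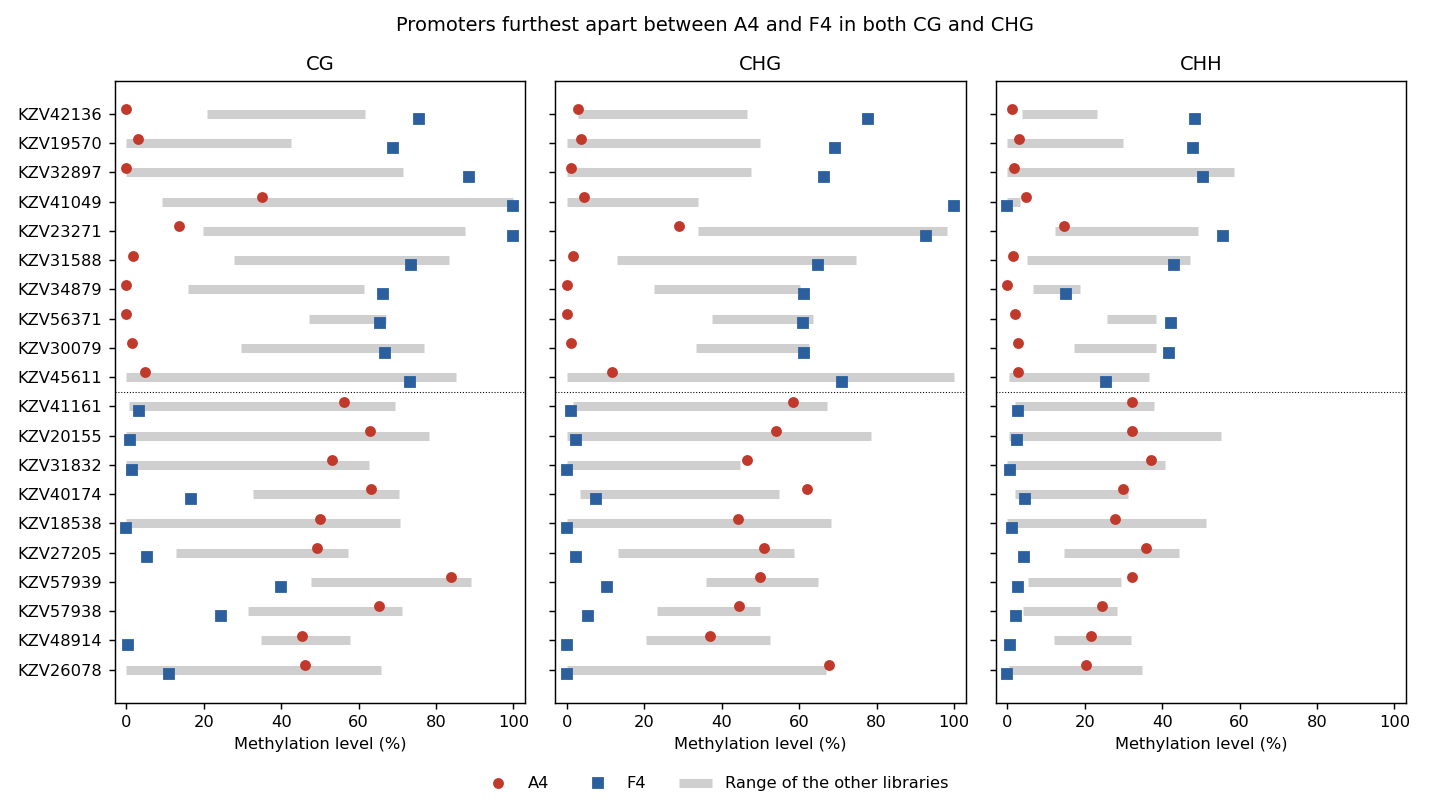
Methylation level (%) in CG, CHG and CHH of the 10 annotated promoters furthest below F4 in A4 (upper 10 rows) and the 10 furthest above (lower 10 rows), ranked by the smaller of the CG and CHG differences, with A4 as red circles, F4 as blue squares and the range of the other libraries (up to 10) as grey bars. In the upper rows A4 is to the left of the grey bar at some promoters, as at KZV30079 with 1.43% CG, and within it at others, as at KZV45611, and in the lower rows A4 is within the grey bar in CG while F4 is mostly at its left end or beyond it.

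Among the 10 annotated promoters furthest above F4 in A4, those described first had F4 below all 10 other libraries in CG. KZV48914, an R2R3-MYB transcription factor, had 45.4% CG and 36.8% CHG in A4 against 0.309% and 0.00% in F4, and the other 10 libraries held 34.8% to 57.9% CG. KZV27205, annotated as secologanin synthase, a cytochrome P450 of iridoid metabolism, had 49.3% CG in A4 and 5.26% in F4, with 12.8% to 57.3% in the others. KZV57939, a TIM16-like subunit of the mitochondrial import motor, had 83.9% in A4 and 40% in F4, and KZV57938, a mitochondrial glycine-tRNA ligase next to it on scaffold KQ987226.1, had 65.4% in A4 and 24.4% in F4. At both of these F4 was below all 10 others, which started at 47.7% and 31.5%. KZV40174, a mitochondrial dimethylglycine dehydrogenase of choline breakdown, had 63.2% CG and 61.9% CHG in A4 against 16.7% and 7.54% in F4, where the others held 32.7% to 70.3% CG but 3.33% to 54.7% CHG. In CHG at KZV40174 it was thus A4 that exceeded all 10.

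The remaining higher promoters were spread widely across the series. KZV20155, a PMADS1-like floral homeotic MADS-box gene, had 63.0% CG in A4 and 0.833% in F4, with 0.00% to 78.2% in the other 10. KZV41161, a 2-hydroxyisoflavanone dehydratase-like enzyme, had 56.3% in A4 and 3.27% in F4, with 0.649% to 69.3% elsewhere. KZV18538, the chloroplastic fructose-1,6-bisphosphatase of the Calvin cycle, had 49.9% CG and 44.1% CHG in A4 and 0.00% in both in F4, and the others ran from 0.00% to 70.6% in CG. KZV31832, the actin-binding protein profilin-1, had 53.2% in A4 and 1.52% in F4, with 0.00% to 62.6% in the others. KZV26078, a malonate-CoA ligase, had 46.2% in A4 and 11.1% in F4, and the median of the other 10 was 0.00%.

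In CHH the widest differences exceeded 30 points in both directions. KZV34952, a mitochondrial alanine-glyoxylate aminotransferase, had 1.23% CHH in A4 and 56.6% in F4, with 15.6% to 49.9% in the others. KZV53314, an activator of the ATPase of the 90 kDa heat shock protein, had 16.2% in A4 and 63.7% in F4, with 13.3% to 67.6% in the others. KZV27499, an ADP-ribosylation factor-like protein, had 0.00% in A4 and 51.2% in F4 and a value in only 6 further libraries. In the other direction, KZV37302, a U-box protein 9, had 69.1% CHH in A4 and 0.00% in F4, with 0.00% to 64.3% in the others. KZV33066, a zinc finger protein, had 72.7% in A4 and 37.3% in F4, with 30.7% to 51.9% in the others, so A4 was above all 10. KZV40455, an Ntn hydrolase superfamily protein, had 83.2% in A4 and 48.7% in F4, although its CG was 84.4% in A4 and 89.8% in F4.

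Complete switches were rare. A promoter at 5% or less in both CG and CHG in A4 and at 50% or more in both in F4 was found 27 times, and the reverse 5 times. Of the 27, 23 were measured in all 12 libraries. At 1 of them all 10 other libraries were at 50% or more in both contexts, and at 8 at least 1 other library was itself at 5% or less in both.

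Lower methylation in A4 was found across gene groups of every kind examined. Of 37 lists of genes drawn up from the annotation, 33 held at least 10 promoters, and in all 33 the median CG and CHG differences were below 0. For all 12730 annotated promoters the median difference was -5.11 points in CG, -2.56 in CHG and -1.58 in CHH, and 8.63% were at least 20 points lower in CG. The 5768 promoters without annotation were more methylated, with a median CG of 81.9% in A4 and 92.9% in F4, a median difference of -8.61 points, and 5.44% at least 20 points lower.

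The order of the lists depended on the join. By the preceding locus tag all 33 CG medians were still below 0, but 12 of them moved by over 1.5 times. Values by that tag are given below for lists that moved and for some others. Transposon-related genes, the classic targets of methylation, had the CG median furthest below 0 among the 33 lists by the own Gene ID. Their 78 promoters had a median CG of 80.9% in A4 and 91.9% in F4 with a median difference of -9.37 points, and A4 was lower at 71 of them. By the preceding tag the median was -7.70 points, and other lists lay further below 0, among them DNA demethylases and factors of RNA-directed methylation at -9.08 points. Only 6 of the 78 (7.69%) passed 20 points, close to the 7.63% of all promoters. Aquaporins, the water channels of the membrane, followed with a median of -8.67 points, and A4 was lower at all 12, of which 2 passed 20 points. Their median was -3.29 points by the preceding tag, with none of 14 past 20 points downward. The 23 promoters of DNA demethylases and factors of RNA-directed methylation had a median of -8.27 points, with 3 lower and 1 higher by at least 20 points. Resistance-like NBS-LRR genes, the intracellular immune receptors, had a median of -7.55 points in CG. Of their 68 promoters, 9 (13.2%) were lower and none higher by 20 points in CG, with the same counts in CHG. By the preceding tag 9 of 93 (9.68%) were lower and none higher in CG.

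The 59 promoters of abscisic acid (ABA) genes, the hormone pathway of drought, had the smallest CG median of the 33 lists by the own Gene ID, -1.90 points, but one of -5.18 points by the preceding tag. By the own ID their median level was 18.7% in A4 and 24.1% in F4, and 2 of 59 (3.39%) passed 20 points downward. One of them was KZV45963, a protein phosphatase 2C 29-like gene, with 10.4% CG in A4 and 38.5% in F4. LEA and seed maturation genes, which encode protective proteins of dry seed and leaf, had a median of -7.33 points over 17 promoters. Among them KZV51959, a late embryogenesis abundant protein 76-like gene, had 45.9% CG in A4 and 73.9% in F4. Cytokinin genes had a median of -2.05 points over 19 promoters, and of -7.17 points by the preceding tag. Among them KZV27324, a zeatin O-glucosyltransferase-like gene, had 48.1% CG in A4 and 68.2% in F4. In the Calvin cycle list 3 of 11 promoters were lower and 1 was higher by 20 points in CG, with a median of -6.66 points. By the preceding tag none of 10 passed 20 points and the median was -3.16. The higher one, KZV34967, sedoheptulose-1,7-bisphosphatase, had 32.4% CG in A4 and 11.8% in F4. The lower ones included KZV39915, a subunit of the protein that binds RuBisCO during assembly and no enzyme of the cycle, with 17.2% in A4 and 39.8% in F4. KZV18538, the fructose-1,6-bisphosphatase described above as higher in A4, was not in this list. The counts therefore do not cover the whole pathway.

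Among transcription factors and heat shock proteins the shares of promoters lower by 20 points in CG were near the 8.63% of all annotated promoters: 7.32% for NAC, 6.67% for WRKY, 9.52% for ERF and DREB and 6.90% for heat shock proteins, the last with 4 of 58 lower and 1 higher. KZV32904, annotated as NAC domain-containing protein 45, had 0.00% CG and 0.00% CHG in A4 against 78.2% and 55.6% in F4, and the other 10 libraries held 50.6% to 78.9% CG. In the NAC list 3 of 41 promoters were lower by 20 points and none higher, with a median of -3.77 points. KZV28281, a WRKY69-like factor, had 2.17% CG in A4 and 55.4% in F4, and the others ran from 0.00% to 44.5%. In the WRKY list 3 of 45 were lower and none higher, and its median was -3.28 points by the own ID and -8.26 by the preceding tag. In the list of ERF and DREB factors 8 of 84 were lower and 1 was higher, led by KZV51765, whose product is listed as hypothetical, with 0.00% CG in A4 and 65.9% in F4. KZV34972, a class I small heat shock protein, had 6.50% CG and 13.3% CHG in A4 against 64.3% and 84.3% in F4. Of the other 10 libraries, F was at 0.00% CG there and the other 9 at 49.2% or more. The heat shock list had a median of -5.12 points by the own ID and -2.04 by the preceding tag.

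Further lists held both directions. Among nitrogen genes, 2 of 31 were lower and 2 higher by 20 points in CG, and their median CHH difference was -6.52 points, the furthest below 0 of the 33 lists. By the preceding tag the nitrogen medians were -1.92 points in CG and -0.93 in CHH. KZV40916, nitrate reductase 2, which reduces nitrate to nitrite, was among the higher ones, with 34.4% CG in A4, 1.20% in F4 and 28.8% to 41.5% in the other 10, so F4 was the value apart. Cell division genes had 17 of 120 promoters lower (14.2%) and 3 higher, but 10 of 133 lower (7.52%) and 0 higher by the preceding tag. Cytochrome P450 genes had a median CHH difference of -6.25 points over 81 promoters. Histone genes had no promoter lower by 20 points in CG among 28, while 5 passed 10 points downward in CHH. In the largest list, pentatricopeptide repeat proteins, which process RNA in organelles, 34 of 300 (11.3%) were lower and 9 higher in CG. In CG and CHG at once 14 were lower. By the preceding tag 33 of 347 (9.51%) were lower and 7 higher in CG. KZV41142 of that list had 12.5% CG and 1.02% CHG in A4 against 71.2% and 53.9% in F4.

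**Figure D4:**
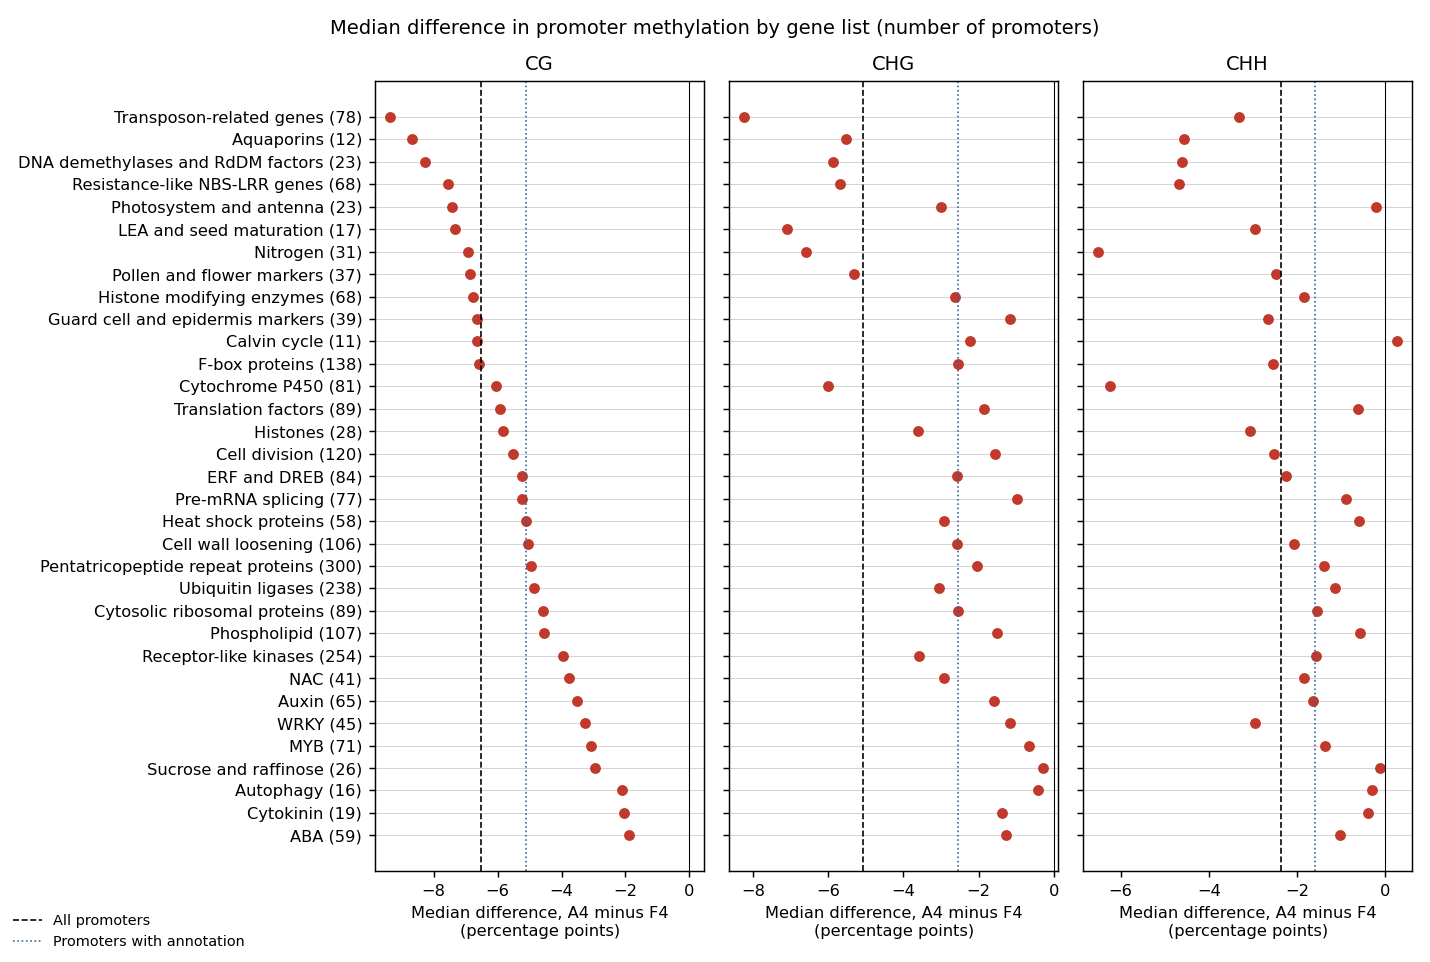
Median difference in methylation level, A4 minus F4 (percentage points), of the 33 gene lists with at least 10 promoters, in CG, CHG and CHH, with the number of promoters in brackets, the median of all promoters as a dashed line and that of the annotated promoters as a dotted line. All CG and CHG points are left of 0, from -9.37 to -1.90 in CG, and in CHH only the Calvin cycle, at 0.29 points, is right of 0.

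Of 26 genes annotated to DNA methylation or demethylation, 16 had a measured promoter, and A4 was lower at 15 of them in CG, by at least 20 points at 4. Over all promoters A4 was lower in CG at 78.0%, and by at least 20 points at 7.63%. The 26 genes were chosen after their values were seen. In the list of DNA methyltransferases A4 was lower in CG at 3 of 5 promoters, by at least 20 points at 1. In that of DNA demethylases and factors of RNA-directed methylation it was lower at 19 of 23, by at least 20 points at 3. The exception among the 16 was KZV26154, a DRM family gene nearly free of methylation, with 1.124% CG in A4 and 0.183% in F4. KZV43376, annotated as the MET1-type DNA (cytosine-5)-methyltransferase, had 20.2% CG in A4 and 40.4% in F4, with 24.9% to 47.8% in the other 10, and under 3% CHG and CHH in both. KZV32941, a DRM2-like methyltransferase, had 16.6% in A4 and 26.8% in F4. KZV27059, assigned by the pathway annotation to DDM1, a chromatin remodeler that gives methyltransferases access to packed DNA, had 65.1% in A4 and 82.2% in F4, below the 78.9% to 87.4% of the others. KZV41370, which the pathway annotation puts in the DRM family although its product is named a dentin sialophosphoprotein-like protein, had 46.0% CG and 31.9% CHG in A4 against 71.7% and 64.3% in F4. KZV55298, the demethylase DEMETER, had 52.2% in A4 and 66.9% in F4, with 57.0% to 64.6% in the others. Outside these 26, KZV56554, RNA-dependent RNA polymerase 2, which makes the double-stranded precursors of small RNAs, was higher in A4, with 50.02% CG in A4 and 20.6% in F4 and 26.5% to 62.1% in the others.

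Transcripts of the same groups were measured in 3 libraries each, tested with limma on log2(FPKM + 1) across all 39 RNA libraries of the series. Fewer cells of a type and less RNA per cell cannot be told apart in such leaf samples. A4 replicate 2 stood apart: 10145 genes were at 0 in it, against 8153 and 7595 in A4 replicates 1 and 3 and 7969 to 8732 in F4. Summed FPKM of the cell division list was 6619, 2287 and 5884 in A4 replicates 1, 2 and 3, against 2977, 3962 and 3978 in F4, and that of 16 leaf mesophyll genes was 91468, 174428 and 83739 in A4 against 103281, 135752 and 109668 in F4. Root genes summed to 42.5 to 50.5 in A4 and 42.8 to 71.0 in F4, and 69 pollen and flower genes to 373 to 508 in A4 and 539 to 580 in F4, of which 23 were at 0 in all 3 A4 and 24 in all 3 F4 libraries, so the mesophyll genes dominated as the leaf label says. With all replicates 4 genes were called higher in A4 (0.0213%) and 5 lower (0.0267%) of 18736 tested, with calls from a log2 fold change of 1 up and an adjusted p up to 0.05. Without A4 replicate 2 the calls were 514 higher (2.74%) and 46 lower (0.246%). F4 replicate 1 deviated from its group mean in a like way to A4 replicate 2 (r = 0.57 across genes) and stayed in that fit.

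Of the 26 genes of the methylation machinery 25 were tested and limma called none, with 2 under an unadjusted p of 0.05. The 2 were the maintenance methyltransferases. MET1 (KZV43376) had 4.57, 0.03 and 3.16 FPKM in A4 replicates 1, 2 and 3, against 0.09, 1.00 and 0.80 in F4. The log2 fold change was 0.87 ± 0.40 (SE, limma adjusted p = 0.505). CMT3 (KZV43016) had 17.88, 0.06 and 28.46 FPKM in A4 and 0.55, 2.16 and 3.56 in F4, with a log2 fold change of 1.57 ± 0.76 (SE, limma adjusted p = 0.539). In both genes A4 replicates 1 and 3 were above all of F4 and A4 replicate 2 was below. Without A4 replicate 2, limma called 3 of the 25 higher and none lower: MET1 (log2 fold change 1.61, adjusted p = 0.00396), CMT3 (3.07, adjusted p = 0.00276) and DDM1 (KZV27059, 1.07, adjusted p = 0.036). These 3 calls rest on 2 A4 replicates and on a spread shared by all groups of the series. F4 replicate 1, which resembled A4 replicate 2 in its deviations, stayed in this fit and had the lowest F4 values of MET1, CMT3 and DDM1. Its part in these calls was not tested. Of all 18736 tested genes, 2.74% were called higher in the same fit. With the 6 libraries of A4 and F4 fitted alone, limma called 0 genes in either direction.

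DDM1 had 8.39, 0.99 and 12.85 FPKM in A4 and 4.02, 5.09 and 4.21 in F4. Other lists moved with these genes. The cell division list, whose FPKM sums are given above, had 0 of 151 tested genes called with all replicates. Without A4 replicate 2, 36 were called higher, where 2.74% of all 18736 tested genes were. F4 replicate 1, which stayed in, had the lowest F4 sum of this list. Histone genes had a median log2 fold change of 1.00 over 27 tested, with 0 called. The 60 guard cell and epidermis markers summed to 1526, 729 and 1132 FPKM in A4 replicates 1, 2 and 3, against 670, 829 and 975 in F4. Without A4 replicate 2, 4 of the 53 tested were called higher. The part of these lists in the transcripts of MET1, CMT3 and DDM1 was not tested. The remaining genes had fold changes from -0.80 (KZV28338, the Dicer-like DCL3) to 0.33 on the log2 scale. FDM1 (KZV30079), whose promoter was nearly free of methylation in A4, had 20.20, 2.54 and 16.47 FPKM in A4 and 14.06, 20.24 and 13.92 in F4, so the groups overlapped (log2 fold change -0.62 ± 0.46 SE, limma adjusted p = 0.736). The DRM2-like gene KZV32941 had 13.37, 7.47 and 17.35 FPKM in A4 against 13.81, 14.00 and 19.39 in F4, and KZV31242, a DNA glycosylase, had 6.58, 3.54 and 10.74 against 6.54, 5.36 and 9.62.

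**Figure D5:**
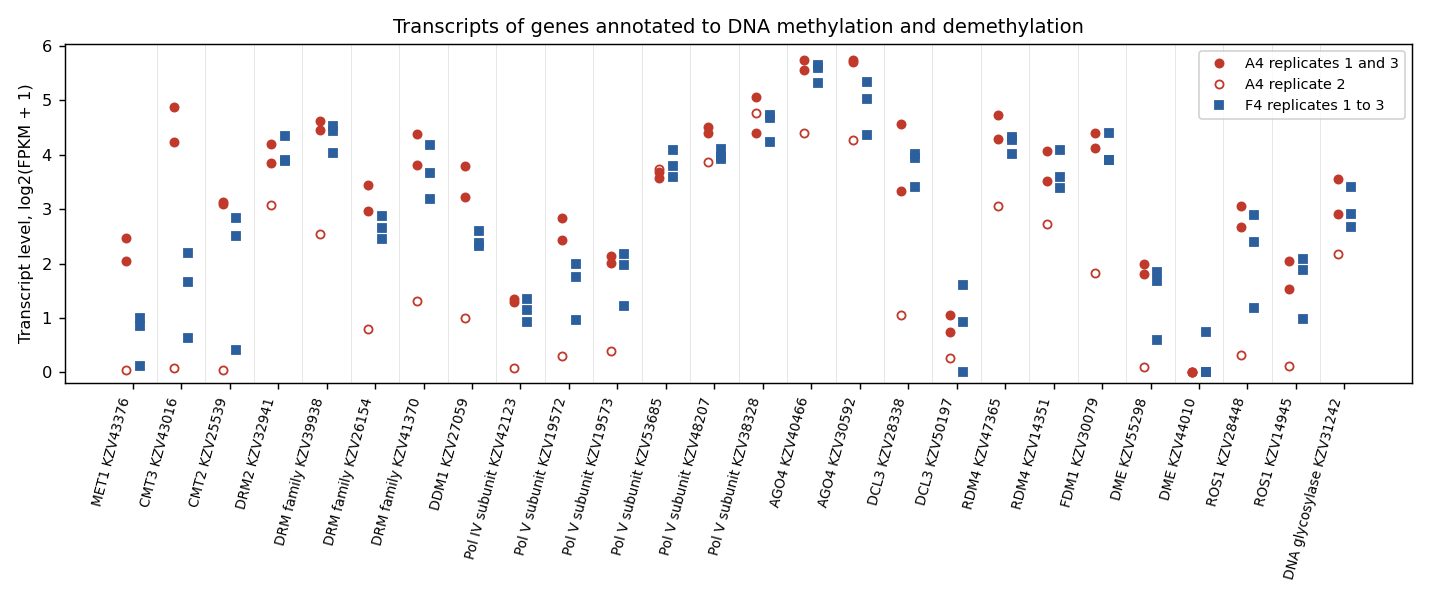
Transcript level, log2(FPKM + 1), of 26 genes annotated to DNA methylation and demethylation, 1 point for each library, with A4 replicates 1 and 3 as filled red circles, A4 replicate 2 as open red circles and the 3 F4 replicates as blue squares. A4 replicate 2 is the lowest A4 point at most genes, and at MET1 and CMT3 the filled circles are above all squares.

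Few transcripts were called, with or without a large promoter difference. Of the 11129 promoters whose gene was tested, 967 were lower in CG by at least 20 points, and limma called 0 of them in either direction, where it called 1 higher and 2 lower of all 11129, too few for the 0 to say anything of the 967. Under an unadjusted p of 0.05 were 35 higher and 55 lower (9.31%, against 8.85% of all 11129). Their median log2 fold change was -0.06, against -0.07 over all 11129. The 183 promoters higher in CG had 0 calls, with 3 higher and 8 lower under an unadjusted p of 0.05, and a median of -0.11. For the 367 promoters lower in both CG and CHG the median was -0.02 with 0 calls and 32 genes under an unadjusted p of 0.05, 16 in each direction. The 1507 promoters lower in CHH had 1 gene called higher and 1 called lower. Across the 11129 promoters the methylation and transcript differences had a Pearson's r of -0.00466 in CG, -0.00351 in CHG and -0.00543 in CHH, and the points share the libraries of each group.

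Without A4 replicate 2, 25 of the 967 CG-lower promoters had a gene called higher and 4 one called lower, against 350 and 27 of all 11129, and the median log2 fold change was 0.10, against 0.08 for all. Joined to the preceding locus tag in place of the own ID, 1089 CG-lower promoters had 0 calls and a median of -0.08, against -0.08 over all 13262.

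Several genes with the widest promoter differences had overlapping transcript values. KZV32897, the aspartic protease, had 546, 180 and 261 FPKM in A4 and 217, 145 and 105 in F4 (log2 fold change 0.98 ± 0.58 SE, limma adjusted p = 0.647). KZV40174, dimethylglycine dehydrogenase, had groups that did not overlap, with 22.60, 27.51 and 31.23 FPKM in A4 and 52.94, 44.81 and 48.41 in F4. Its promoter was higher in A4, and the transcript difference did not pass the threshold (log2 fold change -0.83 ± 0.19 SE, limma adjusted p = 0.108). KZV18538, fructose-1,6-bisphosphatase, had 330, 822 and 436 FPKM in A4 and 599, 701 and 594 in F4, with A4 replicate 2 the highest. KZV34879, the heat stress factor, had 13.77, 12.77 and 14.73 in A4 and 14.63, 11.95 and 13.92 in F4, a log2 fold change of 0.03 ± 0.24 (SE) beside a CG level of 0.00% in A4 and 66.3% in F4. KZV42136, KZV31588, KZV45611 and KZV32904 had under 1 FPKM in all 6 libraries.

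Only 3 of the 9 called genes had a measured promoter, and of these none passed 20 points in CG or CHG and 2 passed 10 points downward in CHH, KZV56958 and KZV39871. KZV56958, a NAC domain transcription factor, had 0.93, 3.41 and 1.74 FPKM in A4 and 46.11, 8.60 and 23.18 in F4 (log2 fold change -2.96 ± 0.57 SE, limma adjusted p = 0.0305). Its promoter had 73.0% CG, 71.5% CHG and 34.1% CHH in A4 against 91.0%, 90.6% and 52.0% in F4, so that less methylation went with less transcript. KZV41115, subunit A of translation initiation factor 3, was at 0.00 FPKM in all 3 A4 libraries and at 1.47, 10.13 and 5.57 in F4, and its promoter had 13.8% CG in A4 and 24.1% in F4. KZV39871, a hypothetical protein, had 49.46, 81.12 and 92.84 FPKM in A4 and 17.13, 8.55 and 15.26 in F4, with a promoter CG of 72.4% in A4 and 85.1% in F4 and CHH of 36.9% in A4 and 48.0% in F4.

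The study named 14 genes as methylation-regulated genes of mid-term stress memory, choosing them on these same libraries, so their values are no independent evidence of a direction. Their CG level was lower in A4 at 13 of the 14 and higher at KZV54544 by 0.16 points. At least 20 points were reached by KZV57108, a GDSL esterase/lipase, with 69.1% CG in A4 and 89.6% in F4, and by KZV44989, with 44.5% in A4 and 65.2% in F4. KZV50189, a vacuolar amino acid transporter 1-like gene, had 80.4% CG and 73.7% CHG in A4 against 95.7% and 91.2% in F4. KZV17830, which the study calls IAA14, a repressor of auxin responses, had 20.5% CG and 20.01% CHH in A4 against 40.2% and 35.9% in F4. KZV19471, pre-mRNA-splicing factor 38, had 69.8% CG in A4 and 88.9% in F4, while its CHH was higher, 65.0% in A4 and 57.9% in F4. KZV27442, a vacuolar proton pump driven by pyrophosphate, had 19.5% CG in A4 and 23.2% in F4. Among the genes the study names for DNA methylation, KZV52430, a histone deacetylase, had 78.6% CG in A4 and 85.2% in F4. Of the 14, none was called in transcripts between A4 and F4; KZV45980 had the lowest adjusted p, with 6.00, 17.93 and 11.62 FPKM in A4 and 1.76, 8.61 and 1.89 in F4 (log2 fold change 1.48 ± 0.48 SE, limma adjusted p = 0.267).

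The differences of neighbouring promoters were weakly correlated. Over 9621 pairs of consecutive promoters on a scaffold, the CG differences had a Pearson's r of 0.0890, the CHG differences 0.118 and the CHH differences 0.137. After a promoter that was lower by at least 20 points in CG, the next was lower too in 141 of 851 pairs (16.6%), against 8.46% of all next promoters. By the gap between the genes, r was 0.0477 in CG and 0.0370 in CHG under 1000 bases. It was 0.145 and 0.207 from 1000 to 2000 bases, and 0.128 and 0.178 from 2000 to 4000 bases. From 4000 to 10000 bases it was 0.0371 and 0.0357, and beyond 10000 bases 0.0182 in CG and 0.0401 in CHG. The gap was taken between genes by the own Gene ID without regard to strand, so it is no distance between promoters. The difference was smaller in CG at genes with more transcript in F4. The median CG difference was -6.04 points under 1 FPKM, -5.12 at 1 to 10, -4.73 at 10 to 100 and -4.24 at 100 FPKM or more. In CHG it was -4.63, -2.18, -2.04 and -2.40 points in this order. The median CG level in F4 also fell, from 52.6% under 1 FPKM to 32.7% at 100 FPKM or more.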

How the data were processed

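Leaf DNA of each group was pooled from 6 biological replicates and sequenced after bisulfite treatment. Reads were mapped by the authors with BSMAP, and the deposited methylation level of each promoter and context is a fraction, shown here as a percent. Read numbers per promoter are not in the tables, so depth and counting error are unknown. RNA reads were processed with HISAT, StringTie 1.0.4, Bowtie2 2.2.5 and RSEM, and the authors deposited FPKM, which carry no depth either. The study's DESeq2 test needs counts and was not run.

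Tables were joined on Gene ID with pandas 2.3.3 (Python 3.11.15). Differences are A4 minus F4, counted from 20 points in CG and CHG and from 10 points in CHH. Genes that reached 1 FPKM in 3 or more of the 39 libraries (18736 of 26693) were tested with limma 3.58.1 (R 4.3.3) on log2(FPKM + 1) over 13 groups of 3, with trend and Benjamini-Hochberg adjustment. Fold changes on this scale understate the change of low genes. Replicates are separate pools of leaves, so the p-values measure the spread between such pools, estimated over all 13 groups together. That spread is mostly from groups other than A4 and F4. The mean r of a library with its group was 0.851 to 0.915 in A4 and F4, and 0.912 to 0.967 in the other groups. The test was checked on simulated data.

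Promoters were named by rule: the 10 furthest down and the 10 furthest up in CG and CHG together with a named product, the 5 furthest each way in CHH (3 of each are described), up to 2 per gene list, and genes the study names for methylation or memory. A part of the rule for genes called in transcripts with a promoter changed by 20 points found none, and the called genes and the methylation machinery were added after their values were seen. The members and lists were chosen with earlier results of these data known. Alternatives covered the thresholds, centring and scaling, the reference library, promoters at exactly 0 or 100%, the locus tag used for the join, and the pseudocount, filter, scaling, samples and replicate block of the transcript test.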

Additional observations from a re-analysis of the deposited data

Results flagged for a closer look

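The acclimated and control pairs did not all share a direction. The median differences were -6.52 points in CG, -5.08 in CHG and -2.37 in CHH for A4 minus F4, against 0.40, 0.50 and 0.50 points for A18 minus F18. In CHH the median was 0.65 points for A minus F. The sign was that of A4 minus F4 for A minus F in CG and CHG, at -0.15 and -0.06 points. For A4D minus F4D it was the same in all 3 contexts, at -0.37, -0.08 and -0.39 points. These differences between pairs were not tested, since each pair is 1 library a side.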

How the results depend on the processing

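Counts of changed promoters depended on the threshold and on whether the general shift was kept. In CG, 6424 promoters were lower and 682 higher in A4 at 10 points, and 458 and 100 at 30 points. In CHG these were 5514 and 394 at 10 points and 315 and 63 at 30 points, and in CHH 6030 and 497 at 5 points and 305 and 61 at 20 points. Centred on the median of all promoters, 642 were lower and 463 higher in CG, 499 and 228 in CHG, and 1302 and 295 in CHH. With A4 scaled to the mean of F4, an alternative chosen after seeing the data, 749 were lower and 493 higher in CG, 504 and 324 in CHG, and 804 and 598 in CHH, and the medians changed sign, to 0.402, 0.359 and 0.595 points. Centring and scaling remove the shift by construction, so a direction holds only for the levels as deposited.

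Against the mean of F, A, F18 and A18, A4 had medians of -6.52, -5.15 and -2.36 points in CG, CHG and CHH. Lower and higher in A4 than this mean were 982 and 94 promoters in CG, 651 and 62 in CHG, and 1650 and 89 in CHH. F4 against the same mean had medians of 0.0564, 0.0836 and 0.0753 points, with 237 lower in CG, 140 in CHG and 265 in CHH. Classed by the F4 value itself, the median of promoters at 1 to 5% was -0.28 points in CG and -0.41 in CHG. Joined to the preceding locus tag, the CG medians of the 33 lists stayed below 0, but 12 moved by over 1.5 times and the order of the lists changed, for example -1.90 against -5.18 points by the preceding tag for ABA and -6.92 against -1.92 for nitrogen.

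Transcript calls hung on single libraries. Leaving out 1 replicate in turn gave 3 to 514 genes higher and 4 to 171 lower in A4, with 514 and 46 without A4 replicate 2, 43 and 171 without A4 replicate 3, 23 and 4 without A4 replicate 1, 26 and 31 without F4 replicate 3, 3 and 10 without F4 replicate 1, and 3 and 5 without F4 replicate 2. A pseudocount of 0.1 gave 1 higher, no filter gave 10 higher and 12 lower, median-ratio scaling gave 2 lower, and the 6 libraries alone gave 0 in either direction with limma, with 641 under an unadjusted p of 0.05. With replicate number as a block the calls were 3 higher and 5 lower. Same-numbered libraries deviated from their group means with r of -0.43, -0.27 and 0.30, so the numbers do not pair the samples. The highest r of an A4 with an F4 library was 0.57, between A4 replicate 2 and F4 replicate 1.

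The median log2 fold changes by promoter group changed sign under median-ratio scaling, to 0.0506 and 0.00694 for promoters lower and higher in CG, 0.0638 and 0.0589 in CHG, and 0.0408 and 0.0614 in CHH. Leaving out 1 replicate in turn, their lowest values (without A4 replicate 3) and highest values (without A4 replicate 2) were -0.187 to 0.0967 and -0.249 to 0.0607 in CG, -0.144 to 0.141 and -0.210 to 0.103 in CHG, and -0.195 to 0.0697 and -0.210 to 0.112 in CHH, and CHG-lower promoters had 0.00138 without F4 replicate 3. The cause was not tested. Of the other values, 25 answering a comparison and 66 more kept direction and size. Depth per promoter is unknown, so which levels rest on few reads cannot be told.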
